A study of Mus musculus with 8 samples.

Results

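The genes described here are 10 imprinted genes, Meg3, Dlk1, Cdkn1c, Grb10, Ndn, H19, Igf2, Mest, Plagl1 and Peg3, measured on microarrays in sorted mouse bone marrow cells. They were found by symbol among the probes that are not controls, which gave 25 of 55661 probes. A probe entered the tests where it was well above background on at least 2 of 8 arrays, and 16 of the 25 did, so that 8 of the 10 genes were measured and Igf2 and Peg3 were not. The genes were chosen by name, with the values of Meg3 and Cdkn1c in Vav-Etv2 and control KSL cells already known to stand out, so that comparison is given for the 10 genes as a description with no test.

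Imprinted genes are transcribed mainly from the copy inherited from a single parent, and many lie in clusters governed by a shared methylated control region. Broadly, genes expressed from the paternal copy favour growth of the embryo and genes expressed from the maternal copy restrain it. Several of them, among them Cdkn1c, Dlk1, Meg3 and H19, are known for high expression in quiescent blood stem cells and in embryonic or vascular tissue.

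Stem and progenitor cells of the blood were sorted as KSL cells, which carry c-Kit and Sca-1 and lack lineage markers, and granulocytes with their precursors were sorted as Gr cells, which carry Gr-1 and Mac-1. The 4 groups, of 2 arrays each, were KSL cells of Vav-Etv2 mice, KSL cells of control mice, Gr cells of Vav-Etv2 mice and Gr cells of control mice. In Vav-Etv2 mice a transgene for Etv2, an ETS factor of the embryonic blood and vessel lineage, was switched on by a Vav-iCre transgene, which is active throughout the blood lineages. All mice were 6 weeks old and of the same mixed strain background, and cells were sorted with no treatment. The labels do not say whether control mice carried either transgene, or whether an array held RNA of 1 animal or of a pool. The p-values therefore cover the spread between arrays, which may be technical in KSL cells. In Gr cells that spread includes a difference in the sex-specific transcript Xist between replicates 1 and 2, given below.

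The array labelled Gr control 2 carried Etv2 at a log2 level of -0.54, against -4.48 in Gr control 1, and its label is therefore in doubt. The sex-specific transcript Xist separated both Gr replicates numbered 1 (0.27 and 0.35) from both numbered 2 (-7.10 and -6.82). On the 4 KSL arrays Xist read 2.12 to 2.69. The KSL minus Gr comparisons therefore also differ in Xist, and the part of sex in them was not tested. All 9 markers of KSL cells were well above background on the 4 KSL arrays, although Ly6a, which encodes Sca-1, was lower in Vav-Etv2 KSL than in Vav-Etv2 Gr cells (log2 difference -2.74, SE 0.76, limma adjusted p = 0.042). All 11 measured granulocyte markers were well above background on every array, with summed levels of 543 to 1966 on KSL arrays and 4469 to 8814 on Gr arrays. KSL Vav-Etv2 replicate 1 stood apart. The median difference of its 10 endothelial markers from the control mean was 3.17 log2, against 0.88 in KSL Vav-Etv2 replicate 2. The median difference of its granulocyte markers from the control mean was -3.54 log2, against 0.24 in replicate 2.

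Levels below are log2 signals relative to the 75th percentile of the same array, so 0 is the level of that percentile, and levels of different probes are not compared. "Not well above background" marks a spot that the scanner software did not separate from its surroundings. In bulk samples fewer cells of a type and less RNA per cell cannot be told apart.

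Meg3, a long noncoding RNA expressed from the maternal copy of the Dlk1-Meg3 cluster, was lower in both Vav-Etv2 KSL arrays than on any other array. The 2 probes described, each of 60 bases, lie on the plus strand of chromosome 12 (build mm9), at chr12:110799558-110799617 and chr12:110809678-110809737. They are shown because their readings differed, and no annotation of that build was used to place them in exons.
Meg3 probe of lower position: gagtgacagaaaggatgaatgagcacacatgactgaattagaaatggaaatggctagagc
Meg3 probe of higher position: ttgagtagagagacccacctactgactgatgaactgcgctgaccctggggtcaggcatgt

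The Meg3 probe of lower position, with 41.7% G and C, was not well above background on any array. All Meg3 values that follow come from the one of higher position (55.0% G and C), whose sequence the files assign to transcript variant 3. It read -4.34, not well above background, and -3.77 in Vav-Etv2 KSL cells, against -1.30 and -1.38 in control KSL cells. It read -2.35 and -2.60 in Vav-Etv2 Gr cells, against -2.68 and -2.67 in control Gr cells. Control KSL cells were thus highest, both Gr groups came next, and Vav-Etv2 KSL cells were lowest.

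In KSL cells the Vav-Etv2 minus control difference of Meg3 was -2.71 on the log2 scale. In Gr cells the same difference was 0.20 (SE 0.30, n = 2 and 2, limma adjusted p = 1.00), and it was 0.21 without the array labelled Gr control 2. The KSL minus Gr difference of Meg3 was -1.58 in Vav-Etv2 mice (SE 0.30) and 1.33 in control mice (SE 0.30), on the log2 scale. Both are given with no p, because they use the KSL arrays on which Meg3 was chosen.

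**Figure D1:**
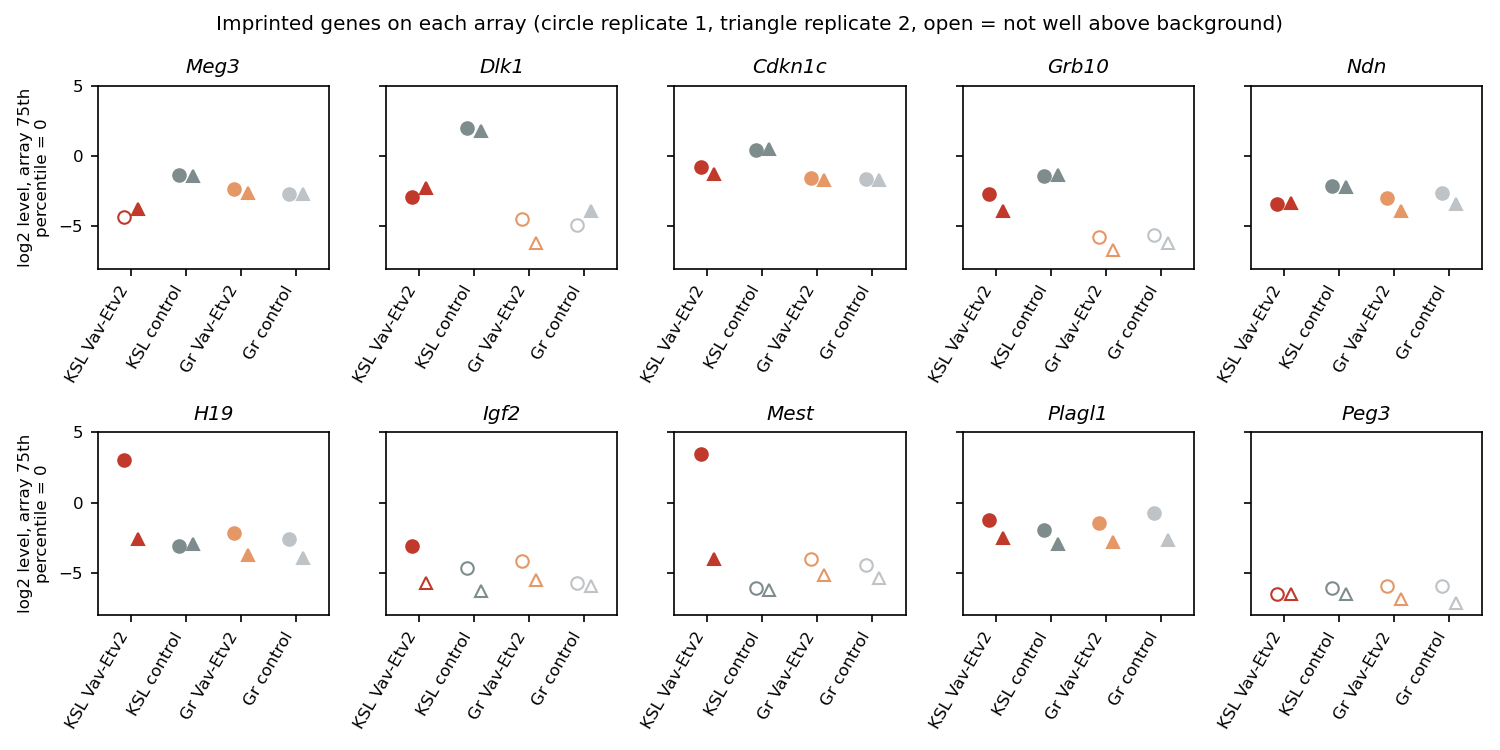
Log2 level relative to the array's 75th percentile of the probe that stands for each of 10 imprinted genes on each of 8 arrays (1 of its probes for Igf2 and Peg3, which did not enter the tests), with circles for replicate 1, triangles for replicate 2 and open symbols for spots not well above background. Meg3, Dlk1, Cdkn1c, Grb10 and Ndn are lower in both Vav-Etv2 KSL arrays than in both control KSL arrays, and H19 and Mest reach 3.07 and 3.48 in KSL Vav-Etv2 replicate 1 alone.

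Dlk1, the paternally expressed neighbour of Meg3 and a membrane protein of the Notch ligand family, showed the widest gap between control and Vav-Etv2 KSL cells among the members that were lower. The probe at chr12:110698721-110698781 read -2.92 and -2.28 in Vav-Etv2 KSL cells, against 2.00 and 1.77 in control KSL cells, a log2 difference of -4.48. The other Dlk1 probe, at chr12:110698502-110698561, read -6.39 and -4.28 in Vav-Etv2 KSL cells, neither well above background, against -0.35 and -0.71 in the controls. Both probes therefore placed Dlk1 lower in each Vav-Etv2 KSL array than in each control.

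In Gr cells Dlk1 read -4.46 and -6.20 in Vav-Etv2 mice, neither well above background. It read -4.91 and -3.92 in controls, of which only the value of the array labelled Gr control 2 was well above background. Dlk1 thus needed its KSL arrays to enter the tests, so its differences between cell types are conditional on them. In Vav-Etv2 mice Dlk1 was at least 3.12-fold higher in KSL than in Gr cells (fitted log2 difference 2.73, SE 0.63, limma adjusted p = 0.024). That call was lost with the normexp background correction (0.51, limma adjusted p = 0.335). It also did not hold without KSL Vav-Etv2 replicate 1 (3.06), without KSL Vav-Etv2 replicate 2 (2.41) or without Gr Vav-Etv2 replicate 2 (1.86). Each of these leave-outs has 1 array in a group, so no p is given. "At least" marks a bound set by the lowest signal that the array separated from background. In control mice Dlk1 was higher in KSL than in Gr cells by 6.30 log2 (SE 0.63, limma adjusted p = 0.0016), or by 5.74 with signals raised to the lowest one separated from background. Without the array labelled Gr control 2 only a bound of at least 51.2-fold remains, and the other Dlk1 probe gives at least 14.3-fold.

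Cdkn1c encodes p57, a maternally expressed inhibitor of cyclin-dependent kinases that holds blood stem cells in quiescence. Its only probe, at chr7:150644753-150644812, was well above background on all 8 arrays. Cdkn1c read -0.76 and -1.27 in Vav-Etv2 KSL cells, against 0.45 and 0.54 in control KSL cells, a log2 difference of -1.51. It read -1.54 and -1.69 in Vav-Etv2 Gr cells, against -1.64 and -1.71 in control Gr cells, groups that overlap. In Vav-Etv2 mice the KSL minus Gr difference of Cdkn1c was 0.60 log2 (SE 0.29), and in control mice it was 2.18 (SE 0.29), again with no p because Cdkn1c was chosen on the KSL arrays.

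Grb10, a maternally expressed adaptor that damps signalling from the insulin and IGF1 receptors, followed the same order. The probe at chr11:11833165-11833224 read -2.71 and -3.93 in Vav-Etv2 KSL cells, against -1.38 and -1.34 in control KSL cells, a log2 difference of -1.95. None of the 4 Gr arrays was well above background for Grb10, which entered the tests through its KSL arrays alone, so that its differences between cell types are conditional on them. Grb10 was at least 1.90-fold higher in KSL than in Gr cells of Vav-Etv2 mice (fitted log2 difference 2.92, SE 0.51, limma adjusted p = 0.0098), and at least 8.02-fold higher in control mice (fitted log2 difference 4.55, SE 0.51, limma adjusted p = 0.0022). With signals raised to the lowest one separated from background, the difference in Vav-Etv2 mice was 0.93 and was not called (limma adjusted p = 0.260). With the normexp background correction Grb10 was called in neither Vav-Etv2 mice (0.40, limma adjusted p = 0.514) nor control mice (1.05, limma adjusted p = 0.060).

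Ndn encodes necdin, a paternally expressed growth suppressor of the MAGE family. Its probe at chr7:69493847-69493906 was well above background on all arrays and read -3.39 and -3.31 in Vav-Etv2 KSL cells, against -2.14 and -2.23 in control KSL cells, a log2 difference of -1.17. In Gr cells Ndn read -2.95 and -3.91 in Vav-Etv2 mice, against -2.64 and -3.42 in controls. The KSL minus Gr difference of Ndn did not pass the threshold in Vav-Etv2 mice (0.08, SE 0.42, limma adjusted p = 0.901) or in control mice (0.85, SE 0.42, limma adjusted p = 0.157). With the replicate number as a block, the control difference of Ndn passed (0.85, limma adjusted p = 0.023).

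H19, a maternally expressed long noncoding RNA of embryonic tissue that shares its control region with Igf2, was high on a single array. Its 7 probes lie on the minus strand of chromosome 7 (mm9) between positions 149761492 and 149762476. The 3 shown are the one with the highest reading, the one that stands for the gene and the one that was not well above background anywhere.
H19 probe at chr7:149761492-149761551: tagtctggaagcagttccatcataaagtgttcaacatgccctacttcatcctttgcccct
H19 probe at chr7:149761756-149761815: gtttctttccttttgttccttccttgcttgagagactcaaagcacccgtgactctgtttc
H19 probe at chr7:149762417-149762476: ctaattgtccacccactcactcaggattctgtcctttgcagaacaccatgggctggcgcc

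The first of these H19 probes read 4.64 in KSL Vav-Etv2 replicate 1 and -3.96 in replicate 2, against -2.58 and -3.04 in control KSL cells. The second read 3.07 and -2.62 in Vav-Etv2 KSL cells, against -3.07 and -2.91 in control KSL cells. In Gr cells the first read -1.55, well above background, and -4.97 in Vav-Etv2 mice, against -5.86 and -4.81 in controls, neither well above background. In KSL Vav-Etv2 replicate 1 these 2 probes stood 7.45 and 6.06 log2 above the control KSL mean, and 3 further H19 probes, which neither control array separated from background, stood at least 41.7-fold, 44.3-fold and 193-fold above it. A sixth probe, above background in 1 of 2 controls, read 1.18. In KSL Vav-Etv2 replicate 2 only the 2 probes given above were well above background, at -1.15 and 0.38 log2 from the control mean.

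The mean difference of H19 between Vav-Etv2 and control KSL cells, 3.22 log2, was 0.38 without KSL Vav-Etv2 replicate 1. The KSL minus Gr difference of H19 was 3.15 in Vav-Etv2 mice (SE 1.66, limma adjusted p = 0.196) and 0.28 in control mice (SE 1.66, limma adjusted p = 0.909). Without KSL Vav-Etv2 replicate 2 the difference in Vav-Etv2 mice was 5.99, and without replicate 1 it was 0.31. Each leaves 1 array in the Vav-Etv2 KSL group, so no p is given.

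Igf2, the paternally expressed growth factor beside H19, had 1 probe at chr7:149839661-149839720. It read -3.12 in KSL Vav-Etv2 replicate 1, where alone it was well above background, and -5.69 in replicate 2, against -4.67 and -6.27 in control KSL cells. It read -4.15 and -5.49 in Vav-Etv2 Gr cells, against -5.71 and -5.94 in control Gr cells. Igf2 was therefore above background on the same array on which H19 was highest, and it could not be tested.

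Mest, a paternally expressed member of the hydrolase fold family found in mesoderm of the embryo, was above background in both Vav-Etv2 KSL arrays and in neither control. The probe at chr6:30697385-30697444 read 3.48 and -4.03 in Vav-Etv2 KSL cells, against -6.10 and -6.20 in control KSL cells, a mean at least 14.7-fold higher. The probe at chr6:30698279-30698338, printed on 10 spots of each array, read 4.63 and -3.04 in Vav-Etv2 KSL cells, against -5.69 and -6.46 in the controls. All 10 of its spots were well above background on both Vav-Etv2 KSL arrays, 8 in Gr Vav-Etv2 replicate 1, 1 in KSL control 1 and 0 on the other 4 arrays. The third Mest probe, at chr6:30692160-30692219, was above background only in KSL Vav-Etv2 replicate 1, at 0.68.

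The bound of the mean rests on KSL Vav-Etv2 replicate 1. That array alone was at least 199-fold above the control KSL arrays with the probe at chr6:30697385-30697444, and replicate 2 alone at least 1.09-fold with that probe and at least 2.17-fold with the one on 10 spots. Mest entered the tests only through the Vav-Etv2 KSL arrays. Between KSL and Gr cells of Vav-Etv2 mice its fitted difference was 4.28 (SE 2.09, limma adjusted p = 0.169), against Gr arrays that were not well above background. Leaving out KSL Vav-Etv2 replicate 2 gave at least 211-fold, and leaving out replicate 1 gave a fitted log2 difference of 0.53. Each leaves 1 array in the Vav-Etv2 KSL group, so no p is given.

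Plagl1, a paternally expressed zinc finger transcription factor, gave readings that depended on the probe. The 2 probes of lower position, chr10:12848421-12848480 and chr10:12848851-12848910, read -1.25 and -2.54, and -1.90 and -3.16, in Vav-Etv2 KSL cells, against -1.94 and -2.91, and -2.26 and -2.88, in control KSL cells. These 2 overlapped between the groups, and the mean difference of the first, 0.53, was -0.12 without KSL Vav-Etv2 replicate 1. The probe at chr10:12850832-12850891 read 3.98 and -4.47 in Vav-Etv2 KSL cells, against -3.05 and -2.86 in the controls, and the probe at chr10:12851280-12851339 read 3.78 and -5.13, against -3.71 and -2.92. In KSL Vav-Etv2 replicate 1 this pair thus stood 6.94 and 7.09 log2 above the control mean, and in replicate 2 they were not well above background. The probe of lowest position has the highest mean and stands for Plagl1 in the counts below, in which no difference of Plagl1 passed.

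Peg3, a paternally expressed zinc finger protein, was not well above background with either of its 2 probes on any of the 8 arrays.

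**Figure D2:**
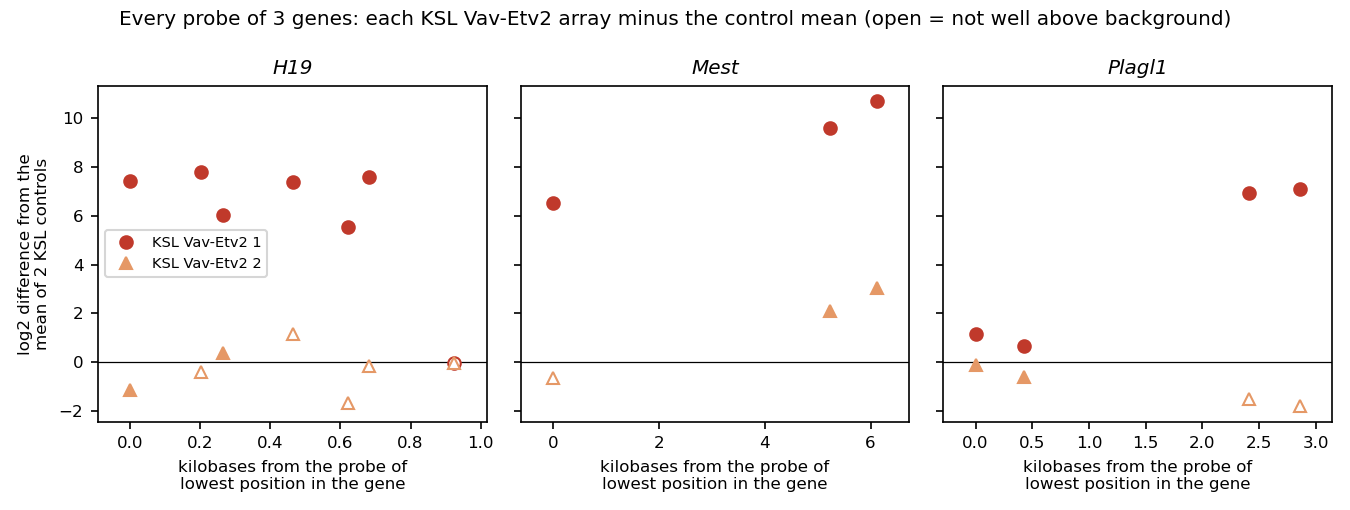
Log2 difference of each KSL Vav-Etv2 array from the mean of the 2 control KSL arrays, for every probe of H19, Mest and Plagl1, against the distance in kilobases from the gene's probe of lowest position; open symbols are spots not well above background. In replicate 1, 6 of 7 H19 probes, all 3 Mest probes and 2 of 4 Plagl1 probes lie 5.56 log2 or more above the control mean, and in replicate 2 only 2 Mest probes exceed 2 log2; for all Mest probes and 4 of the H19 probes neither control was well above background, so the plotted heights are not bounds.

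Over the 8 measured members, 5 were lower (Meg3, Dlk1, Cdkn1c, Grb10 and Ndn) and 2 were higher (H19 and Mest) in both Vav-Etv2 KSL arrays than in both controls, with a median difference of -1.34. Of all 23232 features, 25.4% were lower and 26.2% were higher in that way, and 0.0172% were called by limma; since this comparison entered the choice of genes, nothing is read from the members' share. The count of members used the probe that stands for each gene. The other H19 probe well above background in KSL Vav-Etv2 replicate 2 read -3.96 there, below both controls (-2.58 and -3.04). Without KSL Vav-Etv2 replicate 1 the differences were -2.43 for Meg3, -4.16 for Dlk1, -1.77 for Cdkn1c, -2.57 for Grb10 and -1.12 for Ndn. Between Vav-Etv2 and control Gr cells 0 of 8 members were called by limma at an adjusted p under 0.05, against 0.00861% of all features. At an unadjusted p under 0.05 there were 0 of 8 members and 296 of 23232 features. In Gr cells 1 of 8 members (Meg3) was higher in both Vav-Etv2 arrays than in both controls, where 5.83% of all features were.

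In Vav-Etv2 mice 2 of 8 (Dlk1 and Grb10) were called higher in KSL than in Gr cells by limma, against 10.4% of all features, and 1 (Meg3) lower, against 13.8%. In control mice 4 of 8 members (Meg3, Dlk1, Cdkn1c and Grb10) were called higher in KSL cells, against 16.2% of all features, and 0 were called lower, against 18.5%. The KSL arrays in these cell type comparisons are those of the KSL genotype comparison, so the calls of Meg3 and Cdkn1c are no independent evidence. Without these 2 genes, 2 of 6 members (Dlk1 and Grb10) were called higher and 0 lower in either genotype. Grb10 and Mest passed the filter only through KSL arrays. Among the Gr arrays Dlk1 was well above background only on that labelled Gr control 2, so it too needed its KSL arrays to pass. The calls of Dlk1 and Grb10 are therefore conditional on the filter. Without the array labelled Gr control 2, Dlk1 was at least 51.2-fold and Grb10 at least 5.40-fold higher in KSL cells of control mice. That leaves 1 control Gr array. With each array centred on its median, the calls over all features in control mice split into 35.9% higher, against 46.8% with the 75th percentile, and the median of all features moved by -0.16. Whether the KSL minus Gr differences differ between the genotypes was not tested.

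**Figure D3:**
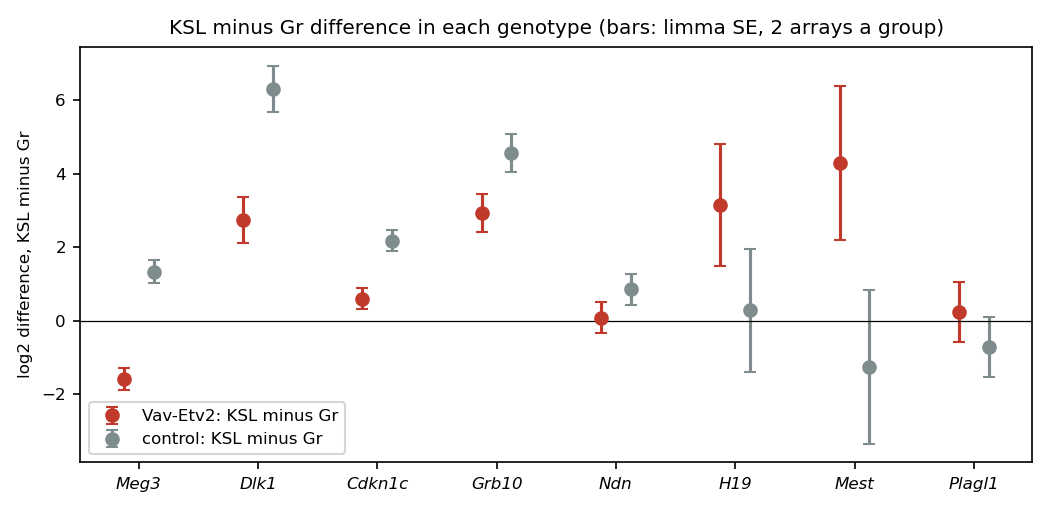
Log2 difference between KSL and Gr cells in Vav-Etv2 mice (red) and in control mice (grey) for the 8 measured imprinted genes, with limma's SE as bars and 2 arrays in each group. Meg3 lies at -1.58 in Vav-Etv2 and 1.33 in control mice, and the bars of H19 and Mest are the longest.

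The neighbours of these genes were taken from a list of their clusters. In the Dlk1-Meg3 cluster only Begain, at the edge of the domain, was measured, and Rtl1, Mirg and Dio3 were not above background on 2 arrays. Begain read -2.34 and -1.31 in Vav-Etv2 KSL cells, against -0.79 and -0.87 in the controls (log2 difference -0.99, limma adjusted p = 0.800). None of the Gr arrays was well above background for Begain, which entered the tests through its KSL arrays. It was at least 5.34-fold higher in KSL than in Gr cells of Vav-Etv2 mice (limma adjusted p = 0.0032) and at least 11.6-fold higher in control mice (limma adjusted p = 0.0011).

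Next to Cdkn1c, Phlda2, a maternally expressed growth regulator of the placenta, read -5.17 and -5.44 in Vav-Etv2 KSL cells, neither well above background, against -3.16 and -2.58 in control KSL cells. The transporter gene Slc22a18 read -1.99 and -0.52 in Vav-Etv2 KSL cells, against 0.99 and 0.79 in the controls. Both were lower in each Vav-Etv2 array, and neither passed the threshold (at least 2.81-fold lower for Phlda2, limma adjusted p = 0.259, and a log2 difference of -2.14 for Slc22a18, limma adjusted p = 0.547). In Vav-Etv2 mice neither was called between KSL and Gr cells (limma adjusted p = 0.151 and 0.964). In control mice Slc22a18 was called higher in KSL cells (2.30, limma adjusted p = 0.046), as was Phlda2 (at least 2.82-fold, limma adjusted p = 0.0040), which entered the tests only through the KSL control arrays. The noncoding RNA Kcnq1ot1 and Osbpl5, Cd81, Tssc4, Nap1l4 and Ascl2 of the same cluster differed by -0.28 to 0.16 between Vav-Etv2 and control KSL cells.

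Of the other cluster genes measured, Ddc, beside Grb10, encodes the decarboxylase of dopamine synthesis and read 3.01 and -1.91 in Vav-Etv2 KSL cells, against -2.92 and -2.43 in the controls. Its KSL difference of 3.22 did not pass (limma adjusted p = 0.800), and its high value fell on the array that was also highest for H19 and Mest. Ins2, Th, Zim3, Copg2, Magel2, Mkrn3, Peg12, Ube3a and Atp10a differed by -0.61 to 0.56 between Vav-Etv2 and control KSL cells. Between cell types, Ins2 and Ascl2 were called lower in KSL than in Gr cells in Vav-Etv2 mice (-3.49 and -3.16) and in control mice (-3.79 and -3.34), and Osbpl5 was called higher in both (4.02 in Vav-Etv2 mice, 3.35 in control mice). Mkrn3 was not well above background on any Gr array and entered the tests only through its KSL arrays. It was called higher in both (at least 1.72-fold in Vav-Etv2 mice, at least 2.01-fold in control mice). Zim3 (at least 2.07-fold, limma adjusted p = 0.040) and Magel2 (at least 1.79-fold, limma adjusted p = 0.024) were called lower in KSL cells of control mice, where neither was well above background.

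Over 62 further imprinted genes, of which 40 were measured, 6 were called higher and 4 lower in KSL than in Gr cells of Vav-Etv2 mice, where 10.4% of all features were higher and 13.8% lower. In control mice 8 were called higher and 9 lower, where 16.2% of all features were higher and 18.5% lower. Of those called higher, Begain, Mkrn3 and Slc22a3 in both genotypes, and Phlda2 in control mice, passed the filter only through KSL arrays. Of those called lower, Zim3 in control mice passed only with its Gr arrays. The counts are therefore conditional on the filter. The transporter gene Slc22a3, not well above background on any Gr array, was called higher in both (at least 11.6-fold in Vav-Etv2 and at least 14.1-fold in control mice). The sarcoglycan gene Sgce (3.83 in Vav-Etv2 and 4.66 in control mice, log2, with 1 of 2 Gr arrays above background in each) and the phosphatase regulator Ppp1r9a (3.09 and 3.32) were also called higher in both. Igf2r, the receptor that clears IGF2 and is itself imprinted, was called lower in KSL cells of both Vav-Etv2 (-1.81) and control mice (-1.81), as was Commd1 (-0.94 and -0.90). Sfmbt2 (-2.33), Pon2 (-1.48) and Blcap (-1.25) were called lower in KSL cells of control mice. Between Vav-Etv2 and control Gr cells 0 of the 40 were called by limma, and 1 had an unadjusted p under 0.05. Their median difference between Vav-Etv2 and control KSL cells was -0.04, and that of all features was 0.0032.

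Of 9 measured partners of the IGF pathway, 2 were called higher and 0 lower in KSL than in Gr cells of Vav-Etv2 mice, and 1 higher and 2 lower in control mice (shares of all features as given above, 10.4% and 13.8%, and 16.2% and 18.5%). The binding protein gene Igfbp4 was called higher in KSL than in Gr cells of Vav-Etv2 (2.03) and control mice (1.46). The RNA-binding protein gene Igf2bp2 was called higher in Vav-Etv2 mice (1.43), and the receptor genes Igf1r (-1.34) and Insr (-1.30) were called lower in control mice. Of 10 measured genes that set, keep or erase imprints, 4 were called higher and 2 lower in KSL cells of Vav-Etv2 mice, and 5 higher and 1 lower in control mice, beside the same shares (10.4% and 13.8%, and 16.2% and 18.5%). The methyltransferase genes Dnmt3b (4.27 in Vav-Etv2 and 4.85 in control mice) and Dnmt3a (1.73 and 1.54), the dioxygenase gene Tet1 (3.67 in Vav-Etv2 and 3.30 in control mice) and the corepressor gene Trim28 (2.10 and 2.18) were called higher in KSL cells of both. Dnmt3l was called lower in KSL cells of both (-3.46 and -3.66), Dnmt1 higher in control mice (1.77) and Tet2 lower in Vav-Etv2 mice (-1.15). The median difference of these 10 genes between Vav-Etv2 and control KSL cells was 0.02.

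Some markers of other cell types also differed between the Vav-Etv2 and control KSL arrays, and their part in the results was not tested. All 10 endothelial markers were well above background on both Vav-Etv2 KSL arrays, against 8 and 9 on the control KSL arrays, with medians of 3.17 (replicate 1) and 0.88 (replicate 2) log2 above the control mean. Among them Cdh5, the vascular cadherin, read 3.53 and -1.59 in Vav-Etv2 KSL cells, against -3.74 and -3.65 in the controls. Not all of these markers were higher on both Vav-Etv2 KSL arrays. Esam read 3.46 and 0.09 in Vav-Etv2 KSL cells, against 1.29 and 1.21 in the controls. The mean difference of Kdr between Vav-Etv2 and control KSL cells was -0.15 log2. In Gr Vav-Etv2 replicate 1, 8 of 10 endothelial markers were well above background, against 4 on each of the other 3 Gr arrays. Their median difference from the control Gr mean was 1.49 log2 there, and that of the B lineage markers was 2.06. The H19 probe at chr7:149761492-149761551 and the Mest probe on 10 spots were above background on that Gr array alone. The H19 probe that stands for the gene was above background on all Gr arrays. Of 10 stroma markers 7 were measured, and their summed level was 142 in KSL Vav-Etv2 replicate 1 and 12.2 in replicate 2, against 13.6 and 11.3 in the controls.

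That stroma sum followed Sparc, a matrix protein also made by vessels, which read 7.08 and 2.29 in Vav-Etv2 KSL cells, against -0.20 and -0.28 in control KSL cells. The other stroma markers did not follow: Col1a2 read -2.09 and -3.08 in Vav-Etv2 KSL cells, against 0.73 and 0.74, and Col1a1 was not well above background on any KSL array. Col3a1, Pdgfra and Lum were not above background on 2 arrays. The 8 B lineage markers lay a median of 2.17 and 2.95 log2 above the control mean in the Vav-Etv2 KSL replicates. Of the KSL markers Procr read -0.08 and 0.29 in Vav-Etv2 KSL cells, against 2.10 and 2.35 in the controls, whereas Cd34 read 7.31 and 7.14, against 7.26 and 7.39. The median difference of the 9 KSL markers from the control mean was -0.43 and -0.53 log2 in Vav-Etv2 replicates 1 and 2.

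**Figure D4:**
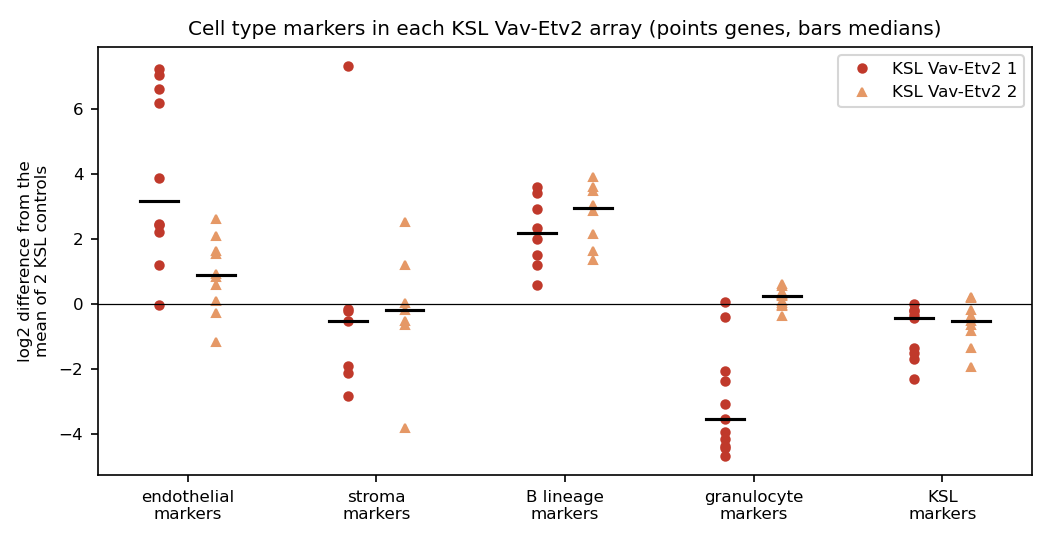
Log2 difference of each KSL Vav-Etv2 array from the mean of the 2 control KSL arrays for markers of 5 cell types, with points for genes (circles replicate 1, triangles replicate 2) and black bars for medians. The endothelial median is 3.17 in replicate 1 and 0.88 in replicate 2, and the granulocyte median is -3.54 in replicate 1 and 0.24 in replicate 2.

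The 5 genes whose levels followed Meg3 most closely over the 8 arrays were Syt3 (Pearson's r = 0.98), Lif (0.98), Fgfr4 (0.96), Fhdc1 (0.95) and Pip4p2 (0.95), a description over arrays that share 4 groups. Syt3, a calcium sensor of the synaptotagmin family, read -4.26 and -3.67 in Vav-Etv2 KSL cells, against -2.44 and -2.37 in control KSL cells, and -2.78 and -3.08 in Vav-Etv2 Gr cells, against -2.96 and -3.14 in control Gr cells. Within the members Dlk1 and Cdkn1c correlated with each other at 0.96 and H19 and Mest at 0.97, the highest pairs, over the same 8 arrays. The value of H19 and Mest rests on KSL Vav-Etv2 replicate 1, where they read 3.07 and 3.48. No other array read above -2.14 for H19 or -3.98 for Mest, and Mest was well above background on only 2 arrays. Meg3 correlated with Dlk1 at 0.51.

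Promoter sequence from RefSeq (build GRCm38.p6, 250 bases before to 50 after a start) was matched for 8 of the 10 genes in 15 windows; Cdkn1c and H19 had no entry. The sequence CCGGAA on either strand, a site that ETS factors bind, was found in 1 of the 15 windows, that of a Meg3 start. It was found in 14.9% of 32851 promoter windows of mouse genes. The shorter ETS core GGAA, which the printed Dlk1 and Mest windows also hold, was not searched for. The windows of the 10 genes held 1 to 45 CG pairs, with a median of 7 in all windows. Meg3, Dlk1 and Mest are shown as examples, chosen with their KSL values known, and CCGGAA or its reverse TTCCGG is in capitals. For Dlk1 and Mest only the bases before the start are printed, and all 3 lie on the plus strand.
Meg3 chr12:109540746-109541045: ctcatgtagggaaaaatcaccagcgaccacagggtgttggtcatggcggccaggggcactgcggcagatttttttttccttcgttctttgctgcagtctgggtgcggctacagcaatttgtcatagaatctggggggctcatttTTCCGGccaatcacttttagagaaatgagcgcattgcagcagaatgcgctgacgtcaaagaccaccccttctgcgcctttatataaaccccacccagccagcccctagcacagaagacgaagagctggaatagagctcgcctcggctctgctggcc
Dlk1 chr12:109452573-109452822: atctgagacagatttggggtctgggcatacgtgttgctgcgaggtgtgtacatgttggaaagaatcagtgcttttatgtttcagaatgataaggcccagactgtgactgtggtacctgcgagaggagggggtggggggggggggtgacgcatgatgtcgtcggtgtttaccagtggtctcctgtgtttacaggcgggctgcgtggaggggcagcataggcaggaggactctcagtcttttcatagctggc
Mest chr6:30737800-30738049: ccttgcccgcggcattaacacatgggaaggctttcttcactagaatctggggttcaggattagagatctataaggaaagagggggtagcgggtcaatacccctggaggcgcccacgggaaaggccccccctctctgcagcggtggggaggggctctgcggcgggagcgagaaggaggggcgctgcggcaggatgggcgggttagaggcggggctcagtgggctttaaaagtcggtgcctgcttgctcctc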

How the data were processed

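Per the file headers, the authors extracted 1-colour array scans with Agilent Feature Extraction 10.7.3.1, and the deposited processed signal is a background-subtracted intensity not scaled between arrays. The deposited quality columns hold other values, 0 or 1 marks per spot. The deposited value table holds log2 values, which, checked here, are centred per probe within each cell type (99.8% of values within 0.01 of those recomputed), and served as an alternative. A further Meg3 probe is not reported here. Outlier spots were removed and repeat spots averaged. Signals were put on the log2 scale, minus each array's 75th percentile (136 to 300 signal units). The share of probes well above background was 47.7% to 55.5%, 0 were saturated, and the number of arrays limits precision. The probe with the highest mean among those well above background on at least 2 arrays stood for a gene. A model with 1 coefficient per group was fitted over 23232 features with limma 3.58.1 in R 4.3.3, with Benjamini-Hochberg adjustment and a threshold of 0.05. The fit was tested on simulated data. All arrays lay on 1 slide. A fold is a lower bound where the dimmer group has no array with signal well above background. Members and lists were chosen with earlier results of these data known. Named were all members, their measured cluster genes, up to 4 called genes per direction of each other list, and the 5 genes most like Meg3. Igfbp3 and Igf2bp1 of the IGF list, and Dppa3 of the imprint regulators, did not pass the filter on low signals. Alternatives were other normalisations, filters, a floor, each probe by itself, an intensity trend, a replicate block and each array left out.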

Additional observations from a re-analysis of the deposited data

Results flagged for a closer look

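The Vav-Etv2 minus control difference of Meg3 in KSL cells minus that in Gr cells was -2.92 log2. Both Vav-Etv2 KSL arrays lay below both control KSL arrays. Both Vav-Etv2 Gr arrays lay above both control Gr arrays, by a mean difference smaller than its SE (0.30). The array labelled Gr control 2, whose label is in doubt, is among these controls. The difference between the cell types was not tested, because the KSL comparison entered the choice of genes. The Gr part of it, 0.20 log2, was not past the threshold (limma adjusted p = 1.00).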

How the results depend on the processing

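No called difference of the 8 members changed sign under the alternatives run, which covered the members and the counts over all features and no other single gene, and H19, Plagl1, Mest and other uncalled Gr differences of under 0.5 log2 could turn direction with the array left out (H19 read -0.33 in Gr cells without the array labelled Gr control 2). The normexp background correction, whose offset of 50 shrinks low signals, left 0 of 3 called members in Vav-Etv2 KSL against Gr cells and 2 of 4 in control mice. Requiring signal on all 8 arrays, which removes Dlk1, Grb10, Mest and Meg3 from the test, left 0 in Vav-Etv2 mice and 1 in control mice. Leaving out each array gave 1 to 4 members in Vav-Etv2 mice, 3 to 4 in control mice and 0 in the Gr comparison. Over all features, Vav-Etv2 KSL against Gr gave 5638 calls (2249 to 7281 with an array left out), control KSL against Gr 8070 (2216 to 9390), and Vav-Etv2 against control 2 in Gr cells (0 to 2) and 4 in KSL cells (0 to 37). The Gr count was 0 with normexp, with signal on all 8 arrays and with only the Gr arrays, and 1 with no filter, with each probe by itself and with an intensity trend. The KSL count was 16 with normexp, 50 with quantile normalisation, 27 with median scaling, 0 with signal on all arrays and 14 with the floor. The members' median in KSL cells, -1.34, was -0.57 with normexp and -0.32 with signal on all arrays, and -1.45 to -1.24 with an array left out. With the replicate number as a block the counts were 10823 in Vav-Etv2 mice, 12498 in control mice and 1 in the Gr comparison. Same-numbered arrays deviated together in Gr cells (r = 0.66), where Xist splits them the same way, but hardly in KSL cells (r = 0.07), and the labels do not say what a number marks; with the block 0 of 8 members were called in the Gr comparison. The cause of these changes was not tested. Signals near background limit Igf2, Peg3, Grb10 and Dlk1 in Gr cells.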
